A study of Mus musculus with 9 samples.

Results

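The chemokine genes Xcl1, Ccl1, Ccl3, Ccl4, Ccl5 and Cxcl10 were followed in activated CD8 T cells of 3 clones, named R7-I, R7-II and R7-III. They were chosen by name, with earlier results of these data known, as 6 of the 24060 genes listed. All 6 passed the filter on low values, a TPM above 1 in at least 1 library, but Ccl1 passed it through R7-III alone. TPM is a transcript level corrected for length, whose total over all genes is fixed in each library. Each clone came from its own transnuclear mouse line, made from the nucleus of a single CD8 T cell specific for the ROP7 peptide of Toxoplasma gondii, on a BALB/c background and with intact Rag2, so that its T cell receptor (TCR) sits in the endogenous loci. A clone was therefore represented by 1 mouse line, and line and TCR cannot be told apart. Per the labels, affinity for the peptide falls from R7-I through R7-III to R7-II, and self-reactivity falls from R7-III through R7-I to R7-II. The paper's measurement of membrane-anchored binding gave similar affinities for R7-I and R7-III and a lower one for R7-II. For every library, splenocytes were incubated overnight with ROP7 peptide at 10 µM and with IL-2 at 10 ng/ml. Live CD3+ CD8+ cells that bound the ROP7 tetramer of H-2Ld were then sorted for RNA sequencing. The ages of the mice and the number of animals per library are not given in the sources used here. There were 3 libraries per clone, labelled as biological replicates, and unstimulated cells were not analysed here, so every value is a level after activation and not a response to it.

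Chemokines are small secreted proteins that direct cell migration through G protein-coupled receptors on the responding cell. Activated CD8 T cells are a known source of XCL1, which attracts cross-presenting dendritic cells through XCR1, and of CCL3, CCL4 and CCL5, which attract T cells and myeloid cells. CCL1 acts through CCR8, and CXCL10, a chemokine induced by interferon-gamma, acts through CXCR3.

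The genes lie at 3 places in the genome (GRCm38, the same build as mm10, RefSeq positions). Xcl1 is at chr1:164931644-164935522 and Cxcl10 at chr5:92346638-92348889, both on the minus strand. The other 4 belong to the cluster of CC chemokine genes on chromosome 11, where Ccl1 (chr11:82176666-82179812), Ccl5 (chr11:83525778-83530518) and Ccl3 (chr11:83647843-83649378) are on the minus strand and Ccl4 (chr11:83662584-83664683, GENCODE) follows Ccl3 on the plus strand. The RefSeq entry of Ccl4 starts at 83648624 because it includes a predicted transcript that runs into Ccl3 on the opposite strand, and the reads were not strand-specific.

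The 250 bases before the RefSeq start are shown for the 4 of 6 genes with an entry in the RefSeq promoter table (GRCm38.p6), because these genes were each lowest in R7-II and can be read side by side. They are the reference sequence, not that of the BALB/c-background mice. Capitals mark matches on either strand to letters of an NF-kB site (GGGNNTTCC), the core of an NFAT site (GGAAA), an AP-1 site (TGANTCA) and an interferon-stimulated response element (GAAANNGAA). The windows are chr1:164935523-164935772 for Xcl1, chr11:83649379-83649628 for Ccl3, chr11:82179813-82180062 for Ccl1 and chr5:92348890-92349139 for Cxcl10, each read 5′ to 3′ on the minus strand.
Xcl1: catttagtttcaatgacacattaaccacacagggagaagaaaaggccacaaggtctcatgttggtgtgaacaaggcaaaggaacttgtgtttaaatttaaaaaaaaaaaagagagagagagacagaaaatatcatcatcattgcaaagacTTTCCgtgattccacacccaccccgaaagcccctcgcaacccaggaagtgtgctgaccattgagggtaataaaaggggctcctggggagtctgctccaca
Ccl3: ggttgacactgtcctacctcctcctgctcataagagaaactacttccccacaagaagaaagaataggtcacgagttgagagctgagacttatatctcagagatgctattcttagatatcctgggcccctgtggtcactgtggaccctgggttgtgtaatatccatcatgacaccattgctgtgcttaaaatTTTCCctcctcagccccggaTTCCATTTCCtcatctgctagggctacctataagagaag
Ccl1: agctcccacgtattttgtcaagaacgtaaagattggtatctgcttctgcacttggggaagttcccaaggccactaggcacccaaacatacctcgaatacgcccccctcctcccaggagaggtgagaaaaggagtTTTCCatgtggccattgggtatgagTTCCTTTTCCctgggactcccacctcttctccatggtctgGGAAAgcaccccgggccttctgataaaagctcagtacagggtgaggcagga
Cxcl10: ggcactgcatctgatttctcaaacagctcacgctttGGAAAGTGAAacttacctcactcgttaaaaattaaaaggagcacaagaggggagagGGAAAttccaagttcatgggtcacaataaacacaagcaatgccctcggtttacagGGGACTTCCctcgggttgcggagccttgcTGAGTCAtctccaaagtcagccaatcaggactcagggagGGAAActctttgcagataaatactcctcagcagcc

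Xcl1 held 1 match to the NFAT core, Ccl3 held 2, and Ccl1 and Cxcl10 held 3 each, against 55.6% of 32851 promoter windows with at least 1. A match to the response element was found once in Ccl3, Ccl1 and Cxcl10 (7.13% of windows), and in each it overlapped a match to the NFAT core. The window of Cxcl10 also held 1 match each to the NF-kB letters (4.98% of windows) and to the AP-1 letters (6.75%). The matches are descriptions of the letters, and binding was not measured.

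Between 13738 and 14434 genes were above 0 TPM in a library, and the read depth of a library is not known from TPM, so no counting error is given. The markers of CD8 T cells were at 2036 to 2238 TPM in sum in R7-I and R7-III and at 2888 to 3005 TPM in R7-II, and 6 and 7 of 8, Lck and Cd8b1 among them, passed as higher in R7-II against R7-I and R7-III, as did 40.6% and 35.6% of all genes tested. R7-II also held more RNA of other cell types. The summed levels of the myeloid markers were 7.10 to 11.4 TPM in R7-I, 8.56 to 10.95 TPM in R7-III and 27.8 to 97.7 TPM in R7-II, and 6 and 7 of 10 tested markers, led by Lyz2 and Cd68, passed as higher in R7-II against R7-I and R7-III. For B cells the sums were 8.14 to 15.2, 4.92 to 7.40 and 34.2 to 71.2 TPM in the same order, with 7 of 7 tested markers, led by Cd79b and Cd79a, higher in R7-II in both comparisons. The MHC class II genes, led by Cd74 and H2-Aa, were at 32.4 to 50.3, 24.3 to 28.1 and 112 to 183 TPM, with 7 of 7 higher in R7-II in both comparisons. Zbtb46 and Batf3 of the dendritic cell list were lower in R7-II, and Tyrobp, the 1 tested gene of the NK cell list, was higher. Of the CD4 T cell markers, Foxp3 was higher and Cd40lg lower in R7-II against R7-III alone. Of the myeloid list, C1qa and C1qb stood at 0.18 TPM or less in every library. The dendritic cell markers Clec9a and Cd209a were listed at 0 in all 9, and the NK cell marker Ncr1 did not exceed 0.08 TPM. The part of these other cells in the differences between clones was not tested. In sorted populations, fewer cells making a transcript and less transcript per cell cannot be told apart.

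Xcl1, Ccl3 and Ccl4 made up between 99.6% and 99.9% of the summed TPM of the 6 genes in every library. The sum was 7417 ± 200.2 TPM in R7-I, 6197 ± 366 TPM in R7-III and 3704 ± 103 TPM in R7-II (mean ± SD, n = 3 libraries, here and for the means that follow), or 0.742%, 0.620% and 0.370% of all transcripts. By mean level, Xcl1 ranked 43 of 24060 genes in R7-I, 50 in R7-III and 83 in R7-II. Ccl4 ranked 80, 93 and 122, and Ccl3 ranked 110, 126 and 316. Ccl5, Cxcl10 and Ccl1 were low, and the highest rank among them was 7367, for Ccl5 in R7-III.

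**Figure D1:**
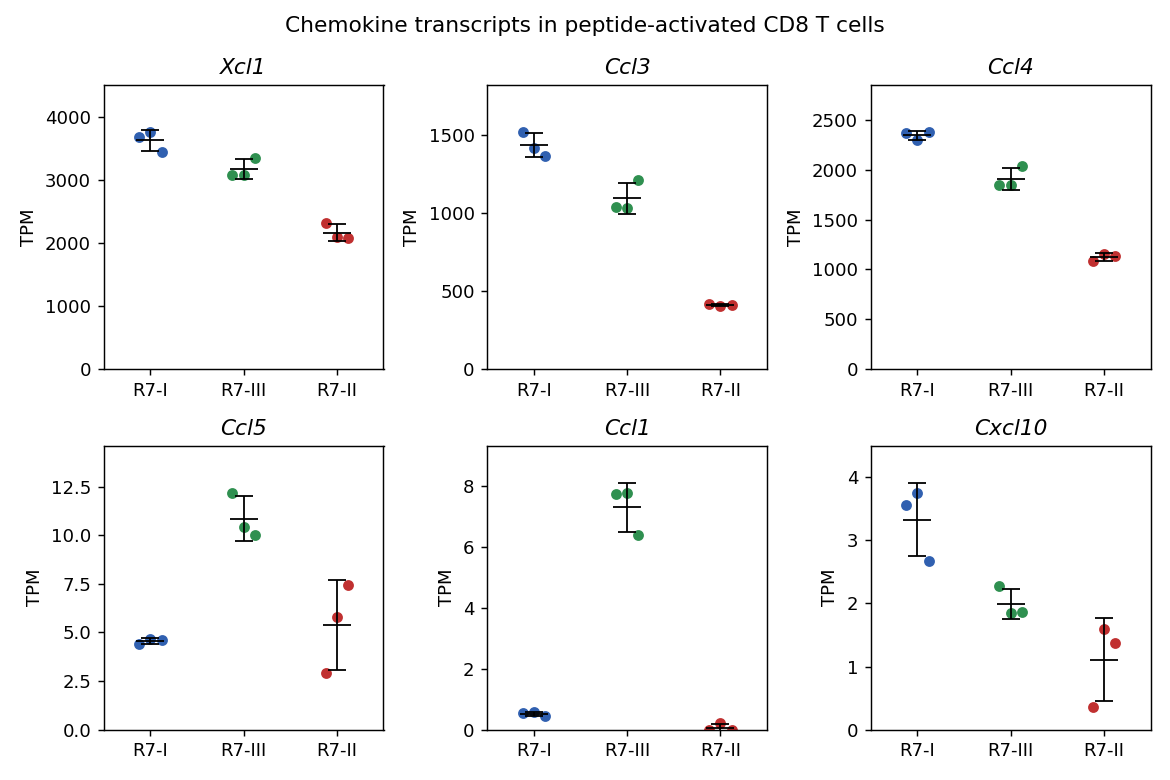
Level of each chemokine transcript in TPM (y axis, from 0, scale differs between panels) by clone (x axis); points are the 3 libraries of a clone, and the bar and whiskers are the mean ± SD. Xcl1, Ccl3, Ccl4 and Cxcl10 fall from R7-I through R7-III to R7-II, while Ccl1 and Ccl5 are highest in R7-III.

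The abundant chemokines were highest in R7-I and lowest in R7-II. Xcl1 was at 3680.60, 3755.83 and 3439.19 TPM in R7-I, at 3080.21, 3080.24 and 3351.82 TPM in R7-III and at 2321.13, 2091.63 and 2081.51 TPM in R7-II. The clones did not overlap, and R7-III replicate 3 came closest to R7-I. On the log2 scale, R7-II minus R7-I was -0.74 and R7-II minus R7-III was -0.55 (SE 0.0503, adjusted p = 6.60e-07 and 5.17e-06, limma on log2(TPM + 1) with Benjamini-Hochberg adjustment over 11330 genes and a threshold of 0.01, as for all adjusted p that follow). Between R7-III and R7-I it was -0.19 (95% interval -0.30 to -0.082, adjusted p = 0.0231), which did not pass. After division of each library by a median-of-ratios factor it was -0.24 and passed (adjusted p = 0.00750).

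Ccl3 showed the largest difference of the abundant genes. It was at 1518.01, 1419.79 and 1366.26 TPM in R7-I, at 1037.19, 1032.75 and 1209.85 TPM in R7-III and at 417.11, 401.84 and 407.63 TPM in R7-II. The clones did not overlap, and the R7-II libraries lay within a narrow range far below the others. The mean in R7-I was 3.51 times that in R7-II, and the mean in R7-III 2.67 times. The log2 difference was -1.81 for R7-II minus R7-I, the 29th most negative of all genes tested, and -1.41 for R7-II minus R7-III (SE 0.0580, adjusted p = 1.51e-08 and 6.15e-08 from limma). R7-III minus R7-I was -0.39 (adjusted p = 0.00126 from limma).

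Ccl4, whose product like that of Ccl3 attracts T cells and myeloid cells, had the same order of clones. Its levels were 2367.96, 2298.99 and 2378.51 TPM for R7-I, 1848.17, 1851.08 and 2039.80 TPM for R7-III, then 1080.11, 1158.27 and 1132.08 TPM for R7-II. Again the clones did not overlap. The log2 differences of R7-II were -1.06 from R7-I and -0.77 from R7-III (SE 0.0401, adjusted p = 2.40e-08 and 1.49e-07 from limma). R7-III fell by 0.30 on the log2 scale against R7-I (adjusted p = 7.94e-04 from limma), a call lost under quantile normalization (-0.24, adjusted p = 0.0222).

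Cxcl10 was low in all clones and followed the same order. It was at 3.56, 3.75 and 2.68 TPM in R7-I, at 2.27, 1.85 and 1.86 TPM in R7-III and at 0.36, 1.59 and 1.37 TPM in R7-II. The clones did not overlap, but R7-II replicate 1 stood far below the other R7-II libraries. R7-II minus R7-I was -1.09 on the log2 scale (SE 0.216, adjusted p = 0.00111 from limma). The call held with a pseudocount of 0.1 or 5 in place of 1, but the difference was then -1.70 or -0.45. Against R7-III it was -0.56 (95% interval -1.04 to -0.080, adjusted p = 0.0402), and between R7-III and R7-I it was -0.53 (95% interval -1.005 to -0.049, adjusted p = 0.118), so neither passed. Without R7-II replicate 1 the difference from R7-III was -0.27 (adjusted p = 0.111 from limma).

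Ccl1 and Ccl5 were highest in R7-III. Ccl1 was at 7.73, 7.76 and 6.37 TPM in R7-III and at 0.53, 0.59 and 0.46 TPM in R7-I. In R7-II it was listed at 0 in replicates 1 and 3 and at 0.21 TPM in replicate 2. The gene passed the filter on low values through R7-III alone. R7-III thus stood far above both other clones, with a mean 13.8 times that of R7-I. The log2 fold change of R7-III against R7-I was 2.44 (standard error 0.123, adjusted p = 1.38e-06 from limma), the 7th most positive of the 11330 genes, and that of R7-II against R7-III was -2.95 (adjusted p = 6.59e-08), the 9th most negative. Both passed under all 19 alternatives, but at these low levels their size followed the pseudocount. With 0.1 in place of 1 they were 3.56 and -5.66, and with 5 they were 1.15 and -1.28. R7-II minus R7-I was -0.52 (adjusted p = 0.00345 from limma), a call lost in 6 of 19 alternatives. These were a pseudocount of 5 (adjusted p = 0.0527), a fit of R7-I and R7-II alone (0.0127), and fits without R7-I replicate 1 or 2 (0.0114 and 0.0144) or R7-II replicate 1 or 3 (0.0116 and 0.0106).

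Ccl5 was at 12.17, 10.41 and 9.99 TPM in R7-III, at 4.39, 4.65 and 4.62 TPM in R7-I and at 2.91, 5.79 and 7.44 TPM in R7-II. R7-III lay above both other clones, and the R7-II libraries spread to both sides of R7-I. The log2 fold change of R7-III against R7-I was 1.09 (standard error 0.219, adjusted p = 0.00696 from limma), and this call was lost in 13 of 19 alternatives, with a direction that did not change and an adjusted p of 1.57e-04 to 0.0317 over the 19. It was lost without each R7-I library (0.0317, 0.0243 and 0.0246), without each R7-III library (0.0314, 0.0268 and 0.0212) and without R7-II replicate 2 (0.0103). The adjusted p from limma was lowest without R7-II replicate 1 (1.57e-04) and in a fit of R7-I and R7-III alone (1.75e-04). The standard error of the main fit includes the spread of the R7-II libraries. R7-II minus R7-III was -0.96 (adjusted p = 0.00280 from limma), a call lost without R7-III replicate 1 (0.0135) and in a fit of these clones alone (0.0119). R7-II minus R7-I was 0.13 (95% interval -0.36 to 0.62, adjusted p = 0.614). It turned to -0.014 after median-of-ratios scaling, and without R7-II replicate 1 it was 0.45 and passed (adjusted p = 0.00622 from limma). In R7-II replicates 1, 2 and 3 the myeloid marker sum was 46.5, 27.8 and 97.7 TPM. The sum of the NK cell list was 2.51, 2.12 and 5.44 TPM, but only 1 of its 5 genes, Tyrobp, passed the filter. The part of other cell types in the spread of Ccl5 was not tested.

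**Figure D2:**
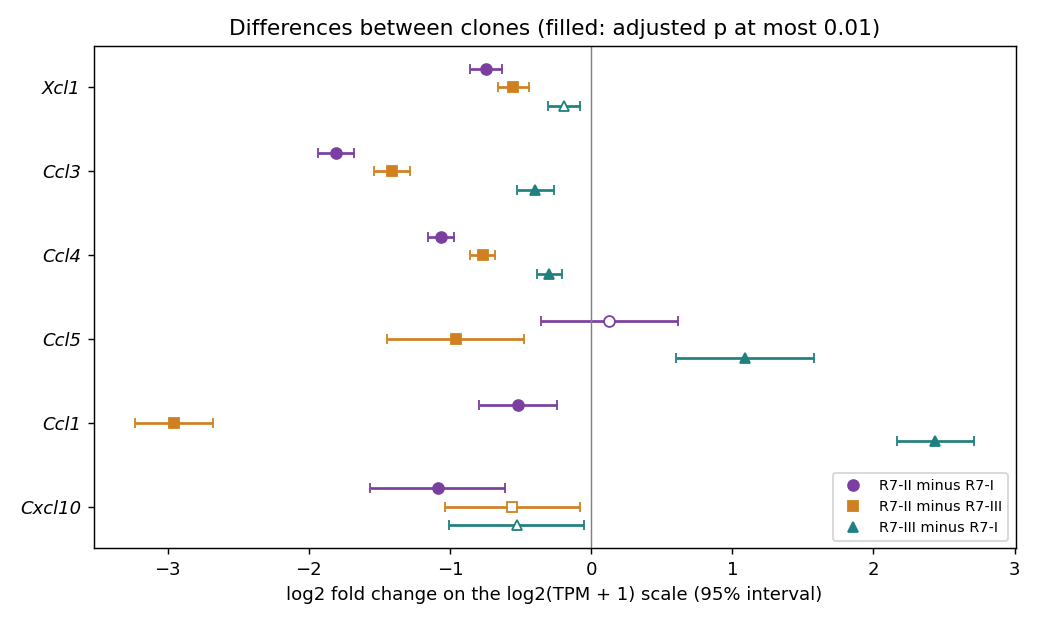
Log2 fold change on the log2(TPM + 1) scale (x axis) of each chemokine gene (y axis) for the 3 pairs of clones, with 95% intervals from limma; filled symbols mark an adjusted p of at most 0.01. Both comparisons of R7-II lie below 0 except Ccl5 against R7-I (0.13), and only Ccl1 (2.44) and Ccl5 (1.09) are higher in R7-III than in R7-I.

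Over the 6 genes, 5 passed as lower and 0 as higher for R7-II minus R7-I, where 15.5% of all genes tested were lower and 40.6% higher. The gene that did not pass was Ccl5, and at an unadjusted p under 0.05 in limma 0 were higher as well. Against R7-III, 5 were lower and 0 higher in R7-II, beside 18.0% lower and 35.6% higher of all genes, and Cxcl10 did not pass. At an unadjusted p under 0.05, 6 were lower and 0 higher. Between R7-III and R7-I, Ccl1 and Ccl5 were higher and Ccl3 and Ccl4 lower in R7-III, beside 6.96% higher and 1.45% lower of all genes. The libraries of R7-II and R7-I did not overlap for 5 of the 6 genes, those of R7-II and R7-III for 6 and those of R7-III and R7-I for 6, beside 71.2%, 70.6% and 41.9% of all genes. Ccl1, which passed the filter on low values through R7-III alone, is counted in each comparison. The comparisons share libraries and are not independent of each other.

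The median log2 fold change of the 6 genes was -0.90 for R7-II minus R7-I, -0.86 for R7-II minus R7-III and -0.25 for R7-III minus R7-I, while the medians over all genes tested were 0.17, 0.12 and 0.04. Median-of-ratios scaling brought the medians over all genes to 0.0084, 0.0042 and 0.00044, and the share of all calls that were higher from 72.4%, 66.4% and 82.8% to 47.7%, 47.9% and 59.0%. Under that scaling the chemokine differences of R7-II grew, to -0.92 for Xcl1, -1.98 for Ccl3 and -1.24 for Ccl4 against R7-I. Under quantile normalization the same differences shrank, to -0.68, -1.68 and -0.96. Without the model, the 3 R7-II libraries differed from the other 6 for Xcl1, Ccl1, Ccl3, Ccl4 and Cxcl10 in an exact permutation test (two-sided, p = 0.0238, which no split of 3 and 6 libraries can go below). For Ccl5 the same exact test gave p = 0.333. These p are not adjusted, and the share of all genes that reach 0.0238 in this exact test was not computed. Of all genes tested, 71.2% did not overlap between R7-II and R7-I and 70.6% between R7-II and R7-III. The smallest p for 3 against 3 libraries is 0.1, which the exact test gave for each of the 6 genes in each pair of clones, with the exception of Ccl5 in R7-II and R7-I (p = 0.7).

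**Figure D3:**
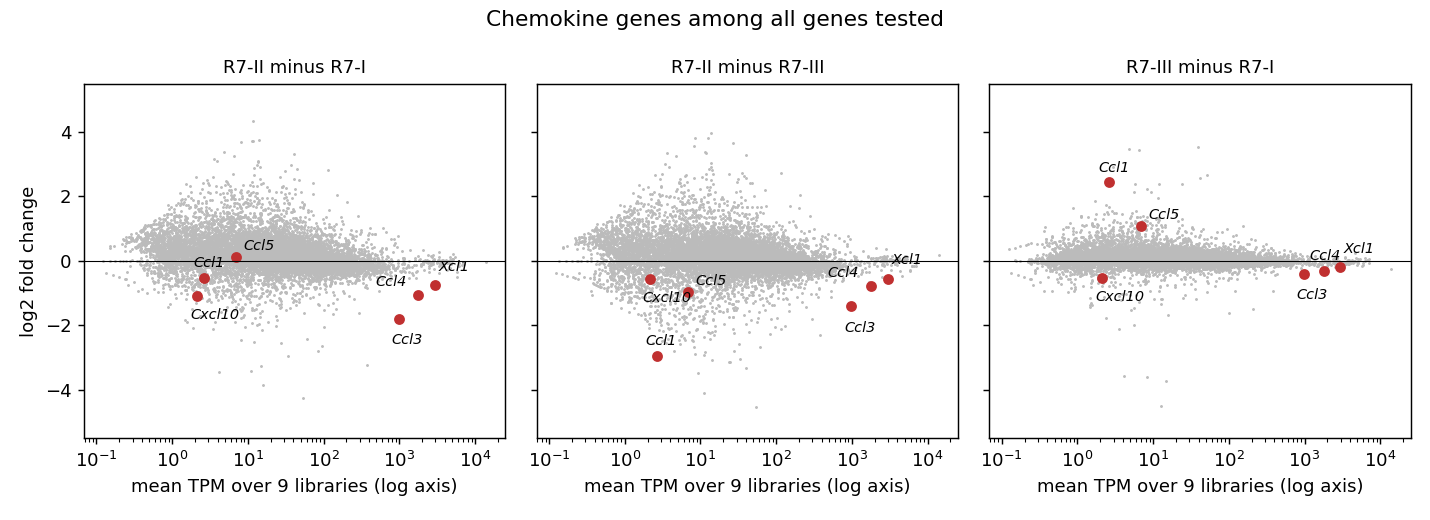
Log2 fold change on the log2(TPM + 1) scale (y axis) against mean TPM over the 9 libraries (x axis, log scale) for the 11330 genes tested (grey) and the 6 chemokine genes (red), for each pair of clones. Xcl1, Ccl3 and Ccl4 lie at the high end of expression and below 0 in all 3 panels, and Ccl1 stands out upwards in R7-III minus R7-I (2.44).

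The ratios between the abundant chemokines were highest in R7-II. Within a library, the ratio of Ccl4 to Ccl3 in TPM was 1.64 ± 0.0923 in R7-I and 1.75 ± 0.0586 in R7-III but 2.75 ± 0.148 in R7-II. Xcl1 over Ccl3 was 2.53 ± 0.111, 2.91 ± 0.119 and 5.29 ± 0.241 in the same order, and Xcl1 over Ccl4 was 1.54 ± 0.0942, 1.66 ± 0.0128 and 1.93 ± 0.189. R7-II was above the other 6 libraries in all 3 ratios, so that Ccl3 was the most reduced in R7-II and Xcl1 the least. Such a ratio does not depend on the scaling of the library. An exact permutation test of the log2 ratios of TPM + 1 in R7-II and in the other 6 libraries (two-sided) gave p = 0.0238 for these 3 ratios, and their Benjamini-Hochberg adjusted p over all 15 pairs of genes, 0.0893, did not pass 0.05. Nothing is read from the pairs with Ccl1, which is listed at 0 in 2 R7-II libraries, so that the pseudocount sets its ratios there. For Ccl3 over Cxcl10 the exact test gave p = 0.0476 (adjusted p = 0.143).

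**Figure D4:**
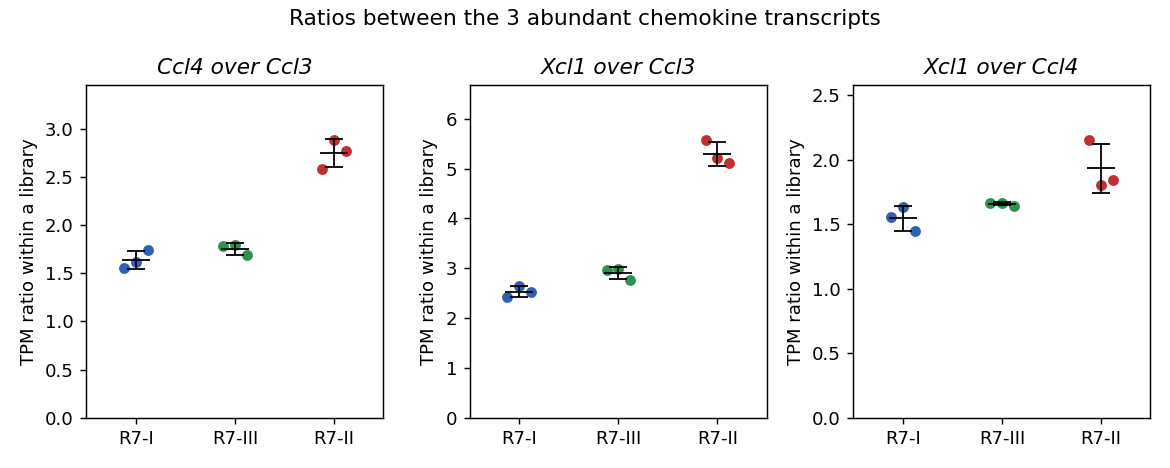
Ratio of TPM values within a library (y axis, from 0) for pairs of the abundant chemokine transcripts by clone (x axis); points are libraries, with mean ± SD. The R7-II libraries lie above the other 6 in each panel, at a mean of 2.75 for Ccl4 over Ccl3, 5.29 for Xcl1 over Ccl3 and 1.93 for Xcl1 over Ccl4.

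Replicates of a clone were close for the abundant genes in all clones, and far apart for the low ones in R7-II. The coefficient of variation was between 1.84% and 9.24% for Xcl1, Ccl3 and Ccl4. For the low genes it was between 3.12% (Ccl5) and 17.1% (Cxcl10) in R7-I and R7-III. In R7-II it was 42.6% for Ccl5, 59.3% for Cxcl10 and 173% for Ccl1.

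Of 32 other chemokine ligand genes, 6 passed the filter on low values and 10 were listed at 0 in every library, among them Ccl7, Ccl8, Ccl11 and Ccl12, which lie next to Ccl1 on chromosome 11. Ccl9, which lies between Ccl5 and Ccl3, was the most abundant of the 6, at 20.36, 18.48 and 19.87 TPM for R7-I, 22.38, 19.86 and 24.51 TPM for R7-III, and 3.29, 3.34 and 4.48 TPM for R7-II. It was low in R7-II without overlap, and R7-I and R7-III overlapped. The log2 differences were -2.14 for R7-II minus R7-I, -2.31 for R7-II minus R7-III and 0.17 for R7-III minus R7-I (adjusted p = 8.72e-08, 7.11e-08 and 0.288 from limma).

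Its neighbour Ccl6, a chemokine known from myeloid cells, was at 0.24, 0.67 and 0.55 TPM for R7-I, 0.10, 0.13 and 0.54 TPM for R7-III, and 1.39, 0.86 and 4.51 TPM for R7-II. R7-II was above both, and its highest library was replicate 3, which also had the highest myeloid marker sum (97.7 TPM). Ccl6 exceeded 1 TPM in R7-II alone, and so passed the filter on low values through that clone. R7-II minus R7-III was 1.23 on the log2 scale (adjusted p = 0.00798 from limma), and R7-II minus R7-I was 0.98 (adjusted p = 0.0238). The former call was lost in 13 of 18 alternatives, among them the fits without any library other than R7-II replicate 2 or 3 (adjusted p = 0.0110 to 0.0299), and the latter passed without R7-II replicate 2 (0.00541). Ccl22 showed the same high library, at 2.25, 0.39 and 6.24 TPM in R7-II beside means of 0.427 TPM for R7-I and 0.747 TPM for R7-III. It did not pass (adjusted p = 0.0428 and 0.112 from limma) except without R7-II replicate 2, its lowest library (0.00120 and 0.00340).

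Ccl27a averaged 0.35 TPM for R7-I, 0.437 TPM for R7-II and 2.52 TPM for R7-III, so its mean exceeded 1 TPM in R7-III alone. It was higher in R7-III than in R7-I (log2 fold change 1.36, adjusted p = 0.00241 from limma) and than in R7-II (R7-II minus R7-III -1.27, adjusted p = 5.38e-04). Its value is uncertain, since the mouse genome holds near-identical copies between which reads can be split, and the call against R7-I did not hold without R7-I replicates 1 and 2, each in turn (0.0113 and 0.0123), or R7-III replicates 1 and 3 (0.0134 and 0.0141). Ccl25 (3.36, 3.84 and 4.75 TPM in R7-I, R7-III and R7-II) and Cxcl16 (0.607, 0.64 and 0.947 TPM) passed in no comparison. Over the 6 tested ligand genes, 0 passed as higher and 1 as lower for R7-II minus R7-I (3 and 1 at an unadjusted p under 0.05 in limma), 1 and 2 for R7-II minus R7-III, and 1 and 0 for R7-III minus R7-I. The shares of all genes in the same comparisons were 40.6% higher and 15.5% lower, 35.6% and 18.0%, and 6.96% and 1.45%.

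**Figure D5:**
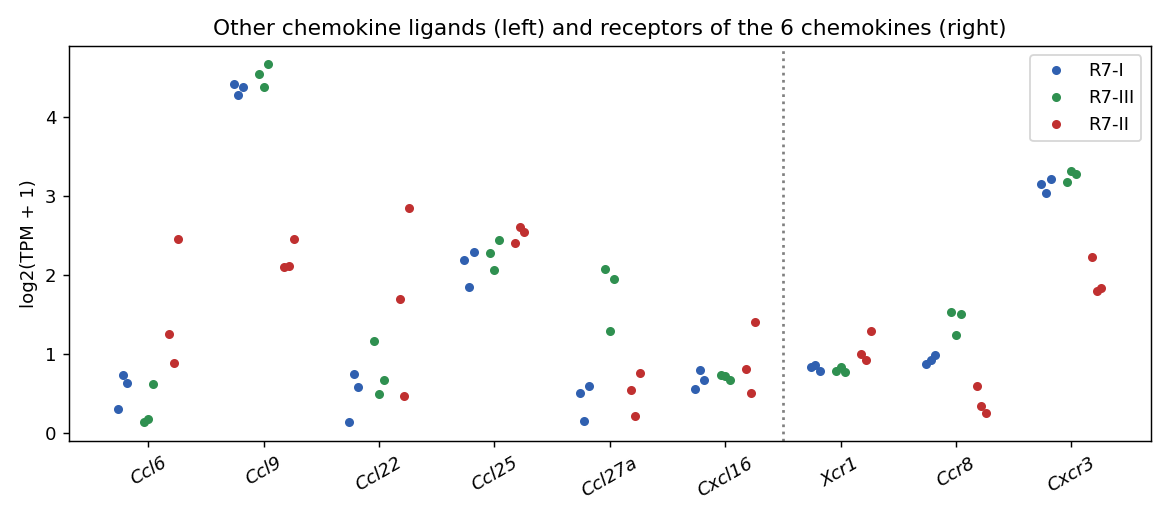
Level in log2(TPM + 1) (y axis) of the other chemokine ligand genes (left of the dotted line) and of the receptor genes of the 6 chemokines (right) that passed the filter; each point is a library, coloured by clone. Ccl9 and Cxcr3 are low in all R7-II libraries, and Ccl6 and Ccl22 are highest in a single R7-II library.

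Of the 7 receptor genes for these chemokines, 3 passed the filter. Cxcr3, the receptor of CXCL10, averaged 7.80 ± 0.528 TPM for R7-I, 8.57 ± 0.460 TPM for R7-III and 2.92 ± 0.683 TPM for R7-II, and R7-II was below both (log2 fold change -1.18 and -1.30, adjusted p = 7.40e-06 and 3.89e-06 from limma). The paper reported lowest Cxcr3 in R7-II from its RNA sequencing, which is the source of the libraries used here. Its quantitative PCR of an independent activation experiment followed the sequencing in every gene it tested but Cxcr3. Ccr8, the receptor of CCL1, was at 0.83, 0.91 and 0.98 TPM in R7-I, at 1.90, 1.36 and 1.85 TPM in R7-III and at 0.52, 0.27 and 0.20 TPM in R7-II. The clones did not overlap, in the same order as for Ccl1. Ccr8 exceeded 1 TPM in R7-III alone, and so passed the filter on low values through that clone. The log2 fold change of Ccr8 in R7-II was -1.02 against R7-III (adjusted p = 7.41e-05 from limma) and -0.53 against R7-I (adjusted p = 0.00559), while 0.50 between R7-III and R7-I did not pass (adjusted p = 0.0285). The call against R7-I was lost in 7 of 18 alternatives, among them the fits without R7-I replicate 1, 2 or 3 (0.0129, 0.0181 and 0.0194) and without R7-II replicate 2 or 3 (0.0136 and 0.0172). Xcr1, the receptor of XCL1, was at 0.743 to 1.12 TPM on average and passed in no comparison.

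Among 17 regulators known to act on chemokine genes, 7 passed as higher and 6 as lower for R7-II minus R7-I, and 6 and 6 for R7-II minus R7-III. Of all genes 40.6% were higher and 15.5% lower in the former and 35.6% and 18.0% in the latter, so the counts of higher regulators are at the background. The 5 most abundant did not move one way. Nfkb1, an NF-kB subunit, averaged 730 ± 10.5 TPM for R7-I, 628 ± 4.79 TPM for R7-III and 564 ± 3.53 TPM for R7-II, in the order of the abundant chemokines. Its log2 differences were -0.37 for R7-II minus R7-I, -0.16 for R7-II minus R7-III and -0.22 for R7-III minus R7-I (adjusted p = 2.43e-07, 1.03e-04 and 1.44e-04 from limma). The call against R7-III was lost under quantile normalization (adjusted p = 0.0715), and Nfkb1 was the single regulator of the 17 that passed between R7-III and R7-I. Irf4, a factor induced by TCR signals, and Junb, an AP-1 subunit, were lower in R7-II than in R7-I (log2 fold change -0.31 and -0.50, adjusted p = 2.97e-04 and 2.33e-06 from limma) and than in R7-III (-0.21 and -0.41, adjusted p = 0.00400 and 1.05e-05). The call of Irf4 against R7-III was lost in 6 of 19 alternatives, among them quantile normalization (adjusted p = 0.0402) and the fits without R7-III replicate 2 or 3 (0.0142 and 0.0172). Rela, another NF-kB subunit, was higher in R7-II (0.35 and 0.31, adjusted p = 1.27e-04 and 3.22e-04 from limma), a call that against R7-I was lost with median-of-ratios scaling and a replicate block together (0.18, adjusted p = 0.0118). Nfatc1 passed for R7-II minus R7-I (0.22, adjusted p = 6.38e-04) but not once scaled by median-of-ratios factors (0.05, adjusted p = 0.270). Tbx21, the T-box factor of type 1 effector cells, was named after its values were seen, with means of 45.6 TPM for R7-I, 49.7 TPM for R7-III and 5.25 TPM for R7-II (log2 fold change -2.94 and -3.05).

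Of 18 genes of the interferon-gamma axis, 10 passed as higher and 1 as lower for R7-II minus R7-I, 8 and 1 for R7-II minus R7-III, and 0 for R7-III minus R7-I in limma, where 3 were higher at an unadjusted p under 0.05. The shares higher of all genes were 40.6% for R7-II minus R7-I and 35.6% for R7-II minus R7-III, and those lower were 15.5% and 18.0%, so the 8 higher genes against R7-III are near the background. With median-of-ratios scaling 8 were higher and 3 lower against R7-I and 7 and 3 against R7-III, beside 26.0% higher and 28.5% lower, and 25.6% and 27.8%, of all genes. Without R7-II replicate 1, Igtp passed between R7-III and R7-I (0.26, adjusted p = 0.00533 from limma). The gene that was lower was Ifng itself, also named after its values were seen, with 149 ± 14.4 TPM for R7-I, 122 ± 5.39 TPM for R7-III and 36.6 ± 11.2 TPM for R7-II (log2 fold change -2.04 and -1.76, adjusted p = 2.85e-06 and 8.37e-06 from limma). Igtp and Gbp2, which interferon-gamma induces as it does Cxcl10, were higher in R7-II. Igtp averaged 150 TPM for R7-I, 180 TPM for R7-III and 244 TPM for R7-II (0.70 and 0.44, adjusted p = 9.23e-06 and 2.76e-04 from limma), of which the call against R7-III was lost with median-of-ratios scaling and a replicate block together (0.31, adjusted p = 0.0120). Gbp2 averaged 79.5, 89.1 and 182 TPM (1.16 and 0.99, adjusted p = 6.71e-05 and 2.11e-04). The kinase gene Jak1 was higher too (0.62 and 0.66, adjusted p = 7.07e-07 and 4.81e-07 from limma). Irf1 passed in neither comparison (adjusted p = 0.230 and 0.469), and without R7-II replicate 1 against R7-I (0.20, adjusted p = 0.00352).

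Among 9 genes that act on chemokine storage, mRNA decay, receptor signalling or cleavage, 4 passed as higher and 4 as lower for R7-II minus R7-I, 4 and 2 for R7-II minus R7-III, and 0 for R7-III minus R7-I in limma, where 1 was higher and 2 lower at an unadjusted p under 0.05. The 4 higher genes are near the 40.6% and 35.6% of all genes that were higher in R7-II, and 15.5% and 18.0% of all genes were lower. Zfp36l1 and Zfp36l2, which promote decay of AU-rich mRNAs, were higher in R7-II (0.47 and 0.55 against R7-I, adjusted p = 4.39e-06 and 6.41e-05 from limma, and 0.42 and 0.61 against R7-III, adjusted p = 1.00e-05 and 3.43e-05). Rgs1, which dampens chemokine receptor signalling, averaged 355 TPM for R7-I, 405 TPM for R7-III and 119 TPM for R7-II (-1.62 and -1.81, adjusted p = 1.52e-05 and 7.37e-06 from limma). Srgn, the proteoglycan of secretory granules, was lower in R7-II than in R7-I (-0.20, adjusted p = 0.00129), a call lost under quantile normalization (adjusted p = 0.0708). Nfkbia, an NF-kB inhibitor, was lower as well (-0.20, adjusted p = 3.75e-04).

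The genes whose levels were most like those of each chemokine were found by the root mean square (RMS) difference of log2(TPM + 1), centred over the 9 libraries. Nearest to Xcl1 were Itgav (RMS 0.0385), Pim3 (0.0539) and Ehd1 (0.0557). Nearest to Ccl3 were Ell2 (0.110), Fasl (0.170) and Lif (0.198), and nearest to Ccl4 were Cd82 (0.0798), Chchd4 (0.0959) and Acy1 (0.101). Fasl, the death ligand of cytotoxic T cells, averaged 9.97 TPM for R7-I, 8.04 TPM for R7-III and 3.02 TPM for R7-II. The low chemokines had looser neighbours, which were Ppp1r3e (0.319), 2810417H13Rik (0.371) and Ccne2 (0.427) for Ccl1, Fam69b (0.182), Gm13251 (0.214) and Cd40lg (0.246) for Ccl5, and Ly6a (0.206), Fam174b (0.227) and Olfr56 (0.232) for Cxcl10. Cd40lg, the CD40 ligand, averaged 5.41 TPM for R7-III beside 2.65 TPM for R7-I and 2.18 TPM for R7-II. These distances describe the 9 libraries, which share the 3 clones, and carry no test.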

How the data were processed

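Sorted, peptide-activated CD8 T cells gave 9 RNA libraries, 3 per clone. The authors used RSEM 1.2.11 both to align the non-strand-specific reads and to estimate gene levels on the RefSeq genes of mm10. The deposited values are TPM by gene symbol, rounded to 2 decimals by the authors. DESeq2 1.8.1 was run by the authors on counts, not used here. TPM keeps no depth, so no counting error could be given. All columns were matched to samples by name (0 unmatched).

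The 11330 genes whose TPM exceeded 1 in some library were put on the log2(TPM + 1) scale, which understates changes of low genes. Clones were compared by limma 3.58.1 under R 4.3.3 (eBayes with trend, all 9 libraries in 1 fit, Benjamini-Hochberg adjustment, threshold 0.01), checked on simulated data. Exact two-sided permutation tests used scipy 1.17.1 in Python 3.11.15. P-values set a difference between clones against the spread between libraries, and the sources do not say which animals the libraries came from. With 1 mouse line per clone, they do not cover the spread between lines. The genes and lists were chosen with earlier results of these data known.

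Named are the 6 chemokine genes, all tested chemokine ligands and receptors, the 5 most abundant genes of each other pathway list, the 2 most abundant of each marker list as examples, and the 3 nearest genes to each chemokine gene. A gene that this rule also takes is not reported here. Promoter sequences are from RefSeq (4 of 6 genes matched), and those of Ccl4 and Ccl5 were not analysed here. The alternatives were another pseudocount (0.1 or 5), filter, scaling, moderation, threshold (0.05) or replicate block, fits of only the clones compared, and leaving out each library.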

Additional observations from a re-analysis of the deposited data

How the results depend on the processing

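The 6 chemokine genes were retested under 19 alternatives for each pair of clones, and at an adjusted p of 0.05. The directions of Xcl1, Ccl1, Ccl3, Ccl4 and Cxcl10 did not change in any, and between 4 and 6 chemokine genes passed in both comparisons of R7-II. Between R7-III and R7-I it was 4, and 2 under quantile normalization, where Ccl4 and Ccl5 no longer passed. It was 3 without the filter on low values and without the mean-variance trend, where Ccl5 no longer passed (adjusted p = 0.0232 and 0.0201), and 5 at an adjusted p of 0.05, which Xcl1 passed too (0.0231). The cause was not tested. With 1 library left out in turn, it was 3 or 4 between R7-III and R7-I. Over all genes that count was 953, and 422, 487, 462 and 523 without R7-I replicate 1 and R7-III replicates 1, 2 and 3, and 574 and 619 without R7-I replicates 2 and 3, which are fits with fewer libraries. Among the other genes, Runx3 turned to -0.18 between R7-II and R7-I under quantile normalization (adjusted p = 0.00848), from 0.00068 (adjusted p = 0.991, limma).

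Libraries of different clones with the same replicate number deviated from their clone means with correlations of -0.045 to 0.089 over 9 pairs. Pairs with different numbers gave -0.095 to 0.065. Such correlations over all genes cannot tell whether same-numbered libraries shared a batch that touched part of the genes. With the replicate block in limma, 6015, 5786 and 733 genes passed between R7-II and R7-I, R7-II and R7-III, and R7-III and R7-I, against 6358, 6077 and 953, and 5, 5 and 3 chemokine genes. Ccl5 between R7-III and R7-I no longer passed with it (adjusted p = 0.0118). The block together with median-of-ratios scaling, an alternative chosen after seeing the data, also gave 5, 5 and 3 chemokine genes, and 619 of all genes for R7-III minus R7-I. TPM without depth does not allow a limit of detection for Ccl1 in R7-II.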
